A study of Mus musculus with 12 samples.

Results

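The nuclear genes for the subunits of oxidative phosphorylation were examined in hippocampal RNA of App NL-F/NL-F mice and of wild-type mice. Members were taken by symbol: genes whose symbol starts with Nduf, Uqcr, Atp5 or Cox4 to Cox8, together with Sdha, Sdhb, Sdhc, Sdhd and Cyc1. A transcript cluster (a set of array probes for 1 transcript region) counted only where its annotation gave a single symbol, and the cluster with the highest mean stood for its gene. This gave 89 genes of 22180 genes with such a cluster on the array. They comprised 79 subunits or isoforms, 9 assembly or supercomplex factors and the pseudogene Atp5c1-ps, which the rule on symbols kept. By symbol, 41 were counted with complex I, 4 with complex II, 8 with complex III, 18 with complex IV and 18 with complex V.

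The mice were males aged 18 months, with 3 mice in each of 4 groups and 1 Affymetrix Mouse Gene 2.0 ST array per mouse. App NL-F/NL-F mice (App below) are homozygous for a knock-in at the mouse's own App locus, where the Aβ region is humanized and the Swedish (NL) and Iberian (F) mutations are added, so that the mouse's own promoter drives it. Both genotypes were kept as separate inbred lines, which had been founded from heterozygote matings. App mice fed a high-fat diet (HFD), App mice fed a regular diet (RD), wild-type mice (WT) fed an HFD and WT mice fed an RD were compared, each after 12 months on the diet. All mice were perfused with saline before the hippocampus was taken.

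Oxidative phosphorylation passes electrons from NADH and succinate along complexes I to IV to oxygen and uses the resulting proton gradient to make ATP in complex V. Most subunits are encoded in the nucleus and are imported into mitochondria, where they join a small set encoded by mitochondrial DNA. Neurons rely on the pathway for the ATP that ion pumps and synapses consume. Several subunits of complex IV exist as isoforms of which one serves most tissues and another serves mainly muscle, testis or lung.

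The promoters of these genes are known targets of NRF1, of GABP and of YY1, transcription factors that bind genes of mitochondrial proteins. RefSeq windows of 300 bases around the start site (GRCm38.p6) were matched by gene ID for 72 of the 89 members. The NRF1 letters, GCGC followed by A, any base and GCGC again, on either strand, occurred in the windows of 17 of the 72 members (23.6%), against 5.19% of 27025 genes with a window and 7.26% of the 16918 of them that had a single-symbol cluster on the array. A gene was counted once, whichever strand matched. The YY1 letters AAGATGGC, on either strand, occurred for 10 members (13.9%), against 3.19% of all genes and 3.65% of those on the array. The GABP letters CCGGAAGT, on either strand, occurred for 5 members (6.94%), against 4.31% of all genes and 5.64% of those on the array. At least 1 of these 3 motifs was present for 31 members (43.1%) and for 11.7% of all genes. These matches are descriptions of letters and not of binding. Windows are shown for Uqcrc1 and Atp5pb, which had the smallest p-values between genotypes among members above an intensity of 100, for Atp5g2, which followed them through a cluster that may measure a copy of the gene, and for Atp5j, the member nearest to App. Capitals mark NRF1 letters in Uqcrc1 and Atp5g2 and YY1 letters in Atp5pb and Atp5j. A further window of Atp5j, at chr16:84835576-84835875, is not shown and held none of the NRF1, GABP or YY1 letters.
Uqcrc1, chr9:108936398-108936697, plus strand: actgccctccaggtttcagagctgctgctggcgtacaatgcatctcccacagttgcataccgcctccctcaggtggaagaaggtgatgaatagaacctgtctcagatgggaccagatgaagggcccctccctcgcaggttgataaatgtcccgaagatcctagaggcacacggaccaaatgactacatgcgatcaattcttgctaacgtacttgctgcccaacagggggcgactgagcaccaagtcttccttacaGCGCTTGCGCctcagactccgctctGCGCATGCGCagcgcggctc
Atp5pb, chr3:105959214-105959513, minus strand: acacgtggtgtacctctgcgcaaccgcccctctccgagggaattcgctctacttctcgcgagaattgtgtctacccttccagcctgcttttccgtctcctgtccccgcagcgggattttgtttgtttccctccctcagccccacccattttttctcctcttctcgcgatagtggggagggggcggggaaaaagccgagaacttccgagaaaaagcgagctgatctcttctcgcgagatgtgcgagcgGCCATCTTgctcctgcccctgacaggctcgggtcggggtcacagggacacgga
Atp5g2, chr15:102670998-102671297, minus strand: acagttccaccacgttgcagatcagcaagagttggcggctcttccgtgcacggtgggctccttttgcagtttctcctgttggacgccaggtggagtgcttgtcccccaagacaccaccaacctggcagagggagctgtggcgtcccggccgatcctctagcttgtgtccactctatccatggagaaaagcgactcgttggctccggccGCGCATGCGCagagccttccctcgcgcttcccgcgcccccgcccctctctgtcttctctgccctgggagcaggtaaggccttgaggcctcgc
Atp5j, chr16:84834927-84835226, minus strand: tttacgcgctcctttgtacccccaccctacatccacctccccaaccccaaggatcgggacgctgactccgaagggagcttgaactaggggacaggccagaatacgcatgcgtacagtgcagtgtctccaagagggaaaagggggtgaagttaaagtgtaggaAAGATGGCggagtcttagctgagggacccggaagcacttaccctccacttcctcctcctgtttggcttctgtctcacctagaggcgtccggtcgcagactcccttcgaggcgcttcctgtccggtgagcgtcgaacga
Counted from 1 at the 5′ end of the window, the NRF1 letters began at bases 256 and 281 in Uqcrc1 and at base 209 in Atp5g2. The YY1 letters began at base 248 in Atp5pb and at base 163 in Atp5j.

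Expression values are log2 values as the authors deposited them, so that a difference of 1 is a doubling. Of the 89 members, 60 had a mean above an intensity of 100 (a log2 of 6.64) and 29 lay below it. All 4 members of complex II were above it, as were 28 of 41 in complex I, 6 of 8 in complex III, 9 of 18 in complex IV and 13 of 18 in complex V. The arrays correlated with each other at r of 0.982 to 0.988 over all 41345 clusters. Prox1 and Neurod2, markers of hippocampal neurons, had means of 7.93 and 9.13. Choroid plexus markers (6 of 8 measured, 2 of them above an intensity of 100) varied widely within every group, with a mean deviation of -1.58 to 0.67 in App HFD mice, -1.52 to 1.17 in App RD mice, -1.34 to 1.08 in WT HFD mice and -0.38 to 0.75 in WT RD mice. In RNA of whole tissue, fewer cells of a type and less RNA per cell cannot be told apart.

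The differences between groups were small for the nuclear genes of oxidative phosphorylation. No member passed an adjusted p under 0.05 with limma in any of 7 contrasts, and the smallest adjusted p was 0.734, for Cox8c between genotypes. At an unadjusted p under 0.05, limma gave 8 of 623 combinations of member and contrast, where 4.62% to 6.47% of all clusters passed that p in a single contrast. Of the 60 members above an intensity of 100, 1 was higher and 2 lower between genotypes at that p. Of the 9858 clusters above that intensity, 353 were higher and 281 lower. Between diets 0 of the 60 passed, against 230 higher and 104 lower of the 9858. At the adjusted threshold, of all 41345 clusters, 0.00242% were called between genotypes over both diets, a single cluster, and 0% in each of the other 6 contrasts. The median difference of all members lay between -0.01 and 0.02 in every contrast, and that of all clusters was 0.00.

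With 3 arrays in each group, the number of arrays limits the precision, which the intervals show. Between genotypes and between diets, the 95% intervals of all 60 members above an intensity of 100 lay within a change of 1.5-fold in either direction. Within the narrower bound of 1.2-fold lay 57 of the 60 intervals between genotypes and 59 between diets. In the 4 comparisons of single groups, 41 to 44 of the 60 intervals lay within 1.2-fold, and all 60 within 1.5-fold. For the difference between the diet effects of the genotypes, 59 lay within 1.5-fold but only 12 within 1.2-fold. The 4 group means of such a member spanned a median of 0.10 and at most 0.23, against a median of 0.13 for all 9858 clusters above an intensity of 100. The SD between mice of a group had a median of 0.07 for these members, against 0.09 for all clusters above that intensity.

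**Figure D1:**
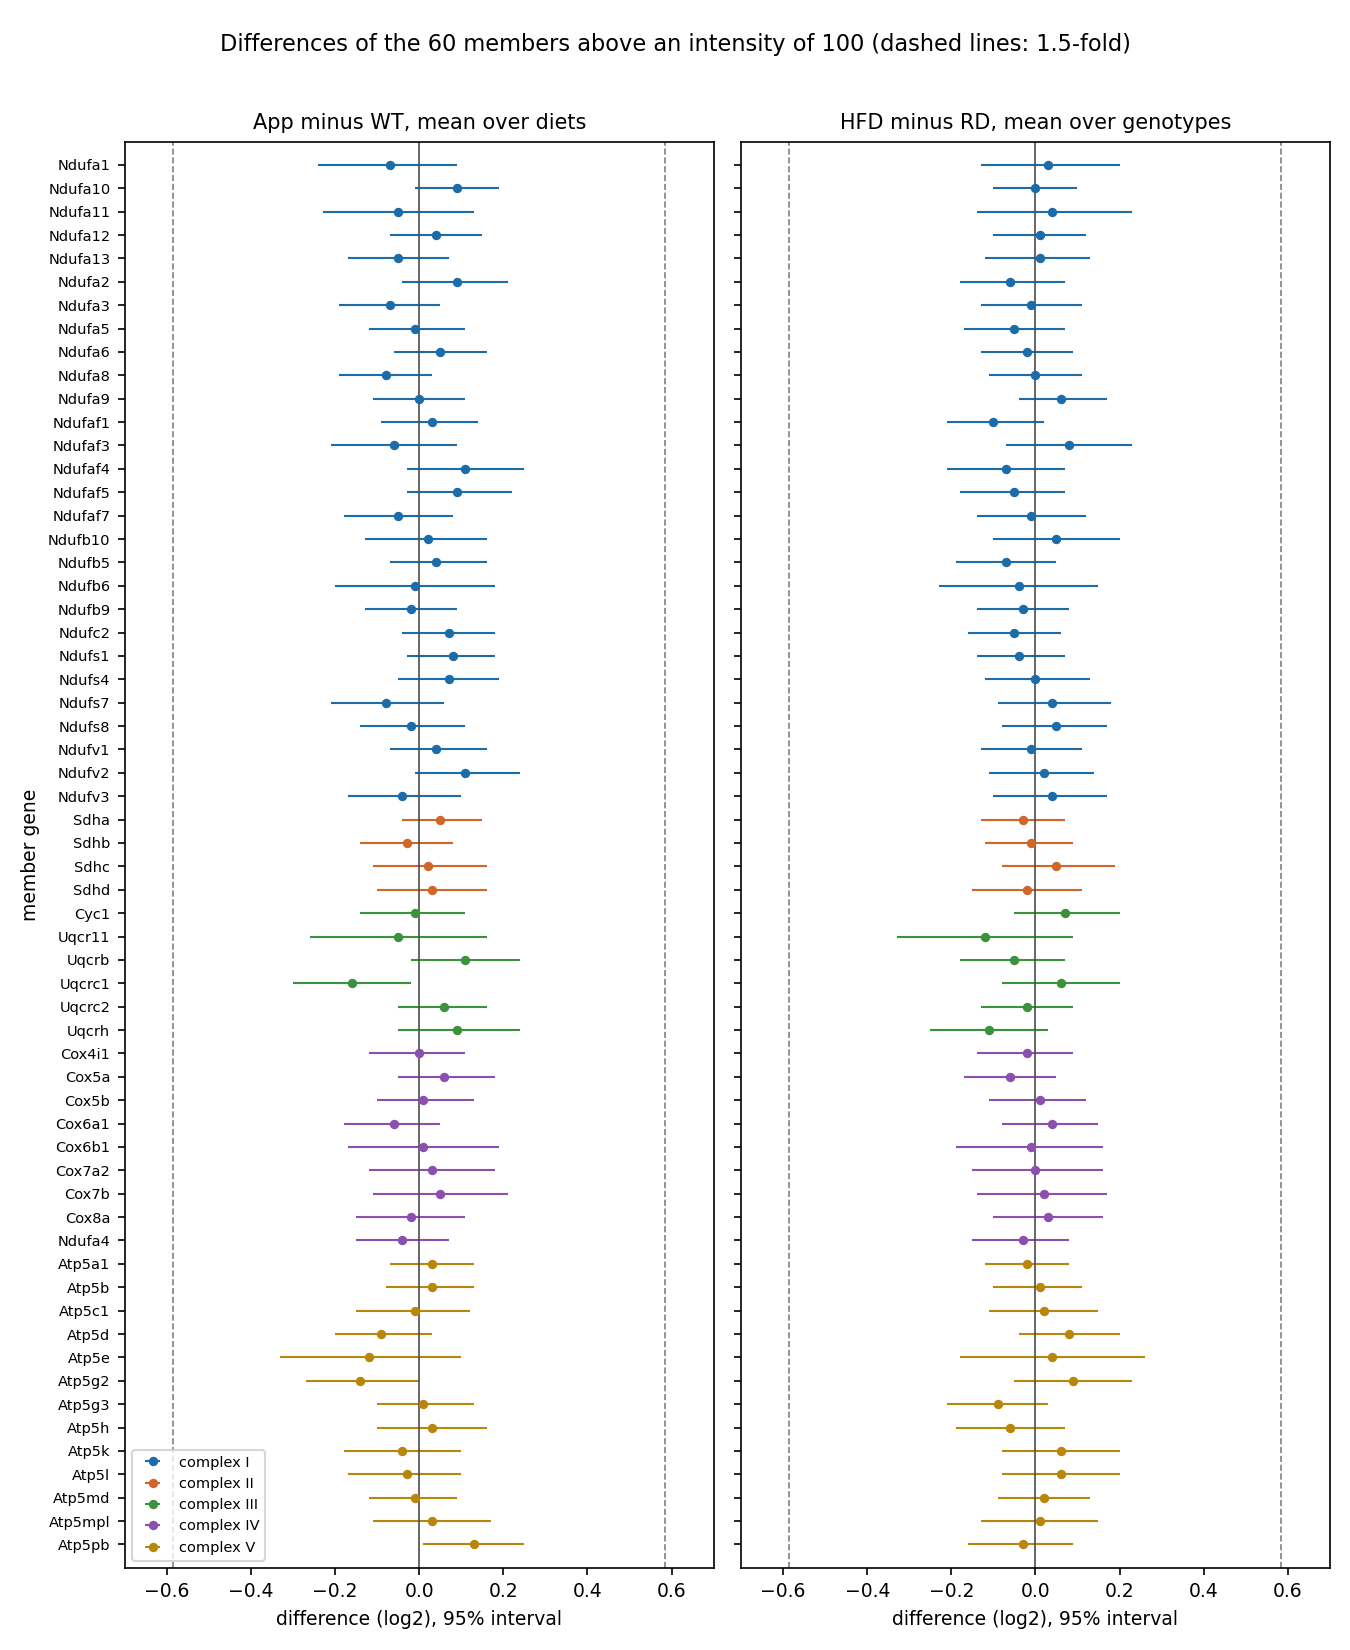
Log2 differences with 95% intervals for the 60 members above an intensity of 100, App minus WT on the left and HFD minus RD on the right, coloured by complex, with dashed lines at 1.5-fold. All intervals lie between the dashed lines, and the estimates run from -0.16 to 0.13 between genotypes and from -0.12 to 0.09 between diets.

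Complex I takes electrons from NADH, and its core subunits carry the flavin and the iron-sulfur clusters. Of its 41 members, 21 had a higher and 20 a lower mean in App than in WT mice, and 20 a higher and 21 a lower mean in HFD-fed than in RD-fed mice. Ndufs1, the largest core subunit, averaged 8.75 ± 0.04 in App HFD mice, 8.77 ± 0.05 in App RD mice, 8.66 ± 0.05 in WT HFD mice and 8.71 ± 0.02 in WT RD mice (SD, n = 3 each). Its genotype difference of 0.08 (95% interval -0.03 to 0.18) did not pass the test (adjusted p = 0.825, limma). The other core members above an intensity of 100, Ndufs7, Ndufs8, Ndufv1 and Ndufv2, had genotype differences of -0.08, -0.02, 0.04 and 0.11, and diet differences of 0.04, 0.05, -0.01 and 0.02. Their adjusted p-values between genotypes were 0.798 or more with limma.

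Ndufa10, an accessory subunit, was the complex I member whose genotypes did not overlap. It measured 9.70, 9.64 and 9.63 in App HFD mice, 9.67, 9.63 and 9.69 in App RD mice, 9.59, 9.53 and 9.59 in WT HFD mice and 9.54, 9.58 and 9.57 in WT RD mice. Every App mouse lay above every WT mouse. The difference was 0.09 ± 0.04 (SE), with an adjusted p of 0.787 (limma). The exact permutation test within diets gave 0.005, two-sided and unadjusted, the smallest p it allows. Groups without overlap on each diet always give this p, so it only restates the separation for which Ndufa10 was named. Markers of cell types were also compared between genotypes, and 0 passed an adjusted p under 0.05 with limma. Of all 41345 clusters, 19996 had a higher mean in App mice. All 8 microglial markers had a higher mean in App mice (median difference 0.13). Their mean deviations were 0.00 to 0.23 in App HFD mice, -0.03 to 0.09 in App RD mice, -0.04 to -0.02 in WT HFD mice and -0.23 to -0.08 in WT RD mice. Of 7 astrocyte markers, 6 had a higher mean in App mice (median difference 0.12), as did 5 of 5 oligodendrocyte markers (0.07), 6 of 7 endothelial markers (0.07), 7 of 9 markers of pericytes and smooth muscle (0.06) and 7 of 10 neuronal markers (0.03). Of interneuron markers 3 of 5 did (0.00), of markers of skeletal or cardiac muscle 1 of 7 (-0.10) and of choroid plexus markers 0 of 6 (-0.39). The part of any of these in the genotype differences of members was not tested. Higher values in all App than in all WT mice were found for 2 of the 89 members, Ndufa10 and Atp5pb, against 0.244% of all clusters, and lower values in all App mice for 0 members, against 0.259% (0.503% in either direction).

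Ndufs3, a core subunit of the arm that hands electrons to ubiquinone, had a mean of 6.21, below an intensity of 100. It measured 6.25, 6.47 and 6.20 in App HFD mice and 6.08, 6.15 and 6.05 in WT HFD mice, and these groups did not overlap. The difference of 0.21 (95% interval 0.00 to 0.42) had an unadjusted p of 0.0486 and an adjusted p of 0.925 with limma. The exact permutation p was 0.1, which 2 groups of this size without overlap always give. Without App HFD mouse 2 the difference was 0.13 (unadjusted p = 0.198, limma). On the RD, Ndufs3 measured 6.20, 6.17 and 6.29 in App mice and 6.10, 6.19 and 6.36 in WT mice, with overlapping groups.

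Ndufa4l2, a hypoxia-inducible paralog of Ndufa4, was counted with complex I by its symbol alone, whereas Ndufa4 was counted with complex IV. Ndufa4l2 had the largest genotype difference among the genes counted with complex I, at -0.32 ± 0.13 (SE). It measured 5.57, 5.07 and 5.33 in App HFD mice, 4.88, 4.87 and 5.44 in App RD mice, 5.43, 5.38 and 5.87 in WT HFD mice and 5.43, 5.58 and 5.41 in WT RD mice. All of these values lay below an intensity of 100, and the genotypes overlapped. The unadjusted p was 0.0353 and the adjusted p 0.753 with limma, and the exact permutation p within diets was 0.065. Ndufa4l2 is known from pericytes in the brain, and the markers of pericytes and smooth muscle (9 of 9 measured, 4 above an intensity of 100) had mean deviations of -0.12 to 0.20 in App HFD mice, -0.09 to 0.09 in App RD mice, -0.01 to 0.23 in WT HFD mice and -0.26 to -0.05 in WT RD mice. Their part in the Ndufa4l2 values was not tested. The largest diet difference in complex I was that of Ndufb11, an accessory subunit below an intensity of 100, at 0.23 ± 0.12 (SE; adjusted p = 0.996, limma).

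Complex II, succinate dehydrogenase, links the citric acid cycle to the chain and is encoded wholly in the nucleus. None of its 4 genes passed an unadjusted p of 0.05 between genotypes or between diets with limma. Sdha, the flavoprotein, averaged 10.58 ± 0.03 in App HFD mice, 10.61 ± 0.02 in App RD mice, 10.52 ± 0.02 in WT HFD mice and 10.56 ± 0.05 in WT RD mice (SD, n = 3 each). Its genotype difference of 0.05 was the largest of the 4 between genotypes (95% interval -0.04 to 0.15). The iron-sulfur subunit Sdhb and the membrane anchors Sdhc and Sdhd had genotype differences of -0.03, 0.02 and 0.03. Between diets, Sdhc had the largest difference, at 0.05 (95% interval -0.08 to 0.19). The 4 intervals lay within 1.2-fold in both contrasts.

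Complex III passes electrons from ubiquinol to cytochrome c. Uqcrc1, one of its core structural subunits, had the most negative genotype difference of the members above an intensity of 100. It measured 9.73, 9.70 and 9.70 in App HFD mice, against 10.02, 9.74 and 9.78 in WT HFD mice. On the RD it measured 9.61, 9.67 and 9.62 in App mice, against 9.71, 9.81 and 9.92 in WT mice. The App mice lay below the WT mice on each diet without overlap, whereas over both diets App HFD mouse 1 lay above WT RD mouse 1. The difference of -0.16 ± 0.06 (SE; 95% interval -0.30 to -0.02) had an unadjusted p of 0.0304 and an adjusted p of 0.752 with limma. The exact permutation p within diets was 0.005, unadjusted, which groups without overlap on each diet always give.

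The partner of Uqcrc1, the core subunit Uqcrc2, had a genotype difference of 0.06 (95% interval -0.05 to 0.16), and cytochrome c1, the product of Cyc1, one of -0.01. The Rieske iron-sulfur protein gene Uqcrfs1, below an intensity of 100, also had -0.01. Of the 8 complex III genes, 3 had a higher and 5 a lower mean in App mice, and 4 a higher and 4 a lower mean in HFD-fed mice. The largest diet difference in complex III was that of Uqcr11, a small accessory subunit, at -0.12 (95% interval -0.33 to 0.09). App RD mice set most of its spread, with 6.80, 6.51 and 7.11.

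Complex IV, cytochrome c oxidase, reduces oxygen. The genotype differences of its widely expressed subunits Cox4i1, Cox5a, Cox5b, Cox6a1, Cox6b1, Cox7a2, Cox7b, Cox8a and Ndufa4 lay between -0.06 and 0.06, and their diet differences between -0.06 and 0.04. Cox4i1, the regulatory subunit that binds ATP, averaged 9.63 ± 0.02 in App HFD mice, 9.64 ± 0.06 in App RD mice, 9.63 ± 0.05 in WT HFD mice and 9.65 ± 0.08 in WT RD mice (SD, n = 3 each). The 9 other complex IV members lay below an intensity of 100. They comprised the isoforms for other tissues Cox4i2, Cox6a2, Cox6b2, Cox7a1, Cox7b2, Cox8b and Cox8c, the subunit Cox7c and the supercomplex factor Cox7a2l.

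Cox6a2, the isoform of heart and skeletal muscle, which also occurs in some interneurons of the mouse brain, had the smallest p of all members between diets. It measured 6.23, 6.36 and 6.40 in App HFD mice and 6.31, 6.21 and 6.08 in App RD mice, and 6.58, 6.37 and 6.50 in WT HFD mice and 6.21, 6.43 and 6.06 in WT RD mice. HFD and RD groups overlapped in both genotypes. The diet difference was 0.19 ± 0.08 (SE), with an unadjusted p of 0.0342 and an adjusted p of 0.995 with limma and an exact permutation p within genotypes of 0.035. In WT mice alone it was 0.25, with an unadjusted p of 0.0449 and an adjusted p of 0.949 with limma, and 0.16 without WT RD mouse 3. Markers of skeletal or cardiac muscle (7 of 7 measured, 0 above an intensity of 100) had mean deviations of -0.10 to 0.09 in App HFD mice, -0.18 to -0.04 in App RD mice, -0.04 to 0.27 in WT HFD mice and -0.05 to 0.14 in WT RD mice. Interneuron markers (5 of 5 measured, 3 above an intensity of 100) had -0.08 to 0.06 in App HFD mice, -0.02 to 0.08 in App RD mice, -0.07 to 0.03 in WT HFD mice and 0.00 to 0.08 in WT RD mice. Of 9 markers of pericytes and smooth muscle, 7 had a higher mean in HFD-fed mice (median difference 0.17), as did 7 of 7 endothelial markers (0.17), 5 of 5 oligodendrocyte markers (0.14), 7 of 8 microglial markers (0.05) and 5 of 7 muscle markers (0.13). Of interneuron markers 0 of 5 did (-0.07), of neuronal markers 2 of 10 (-0.03), of astrocyte markers 2 of 7 (-0.03) and of choroid plexus markers 0 of 6 (-0.28). The part of any of these in the Cox6a2 values was not tested.

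Cox8c, an isoform known from testis, had the smallest p of any member between genotypes, at a level far below an intensity of 100. It measured 4.13, 3.85 and 3.92 in App HFD mice, 3.74, 4.14 and 3.96 in App RD mice, 3.63, 3.67 and 3.85 in WT HFD mice and 3.77, 3.76 and 3.75 in WT RD mice. The difference of 0.22 ± 0.08 (SE) had an unadjusted p of 0.0213 with limma, and the genotypes overlapped. Cox8b, the muscle isoform of the same subunit, was the noisiest subunit, with values from 3.45 to 5.38 over the 12 mice and a pooled SD within groups of 0.667. The genotype differences of Cox4i2, Cox6b2, Cox7a1 and Cox7b2 were -0.08, -0.14, -0.08 and 0.18, with adjusted p-values of 0.804 or more with limma.

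Complex V, ATP synthase, consists of a catalytic head, a rotating stalk with a ring of subunit c in the membrane, and a peripheral stalk. The head genes Atp5a1 and Atp5b, for subunits alpha and beta, each had a genotype difference of 0.03, and Atp5c1, for the central stalk subunit gamma, one of -0.01. Atp5b averaged 11.70 ± 0.01 in App HFD mice, 11.68 ± 0.03 in App RD mice, 11.66 ± 0.05 in WT HFD mice and 11.66 ± 0.08 in WT RD mice (SD, n = 3 each). The diet differences of the 3 genes were -0.02, 0.01 and 0.02.

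Atp5pb, for subunit b of the peripheral stalk, had the highest genotype difference above an intensity of 100. It measured 9.02, 8.99 and 9.05 in App HFD mice and 9.0, 9.02 and 9.11 in App RD mice. In WT mice it measured 8.97, 8.90 and 8.75 on the HFD and 8.87, 8.96 and 8.95 on the RD. Every App mouse lay above every WT mouse. The difference of 0.13 ± 0.05 (SE, 95% interval 0.01 to 0.25) had an unadjusted p of 0.0335 and an adjusted p of 0.752 with limma. Its exact permutation p within diets was 0.005, unadjusted, which follows from the lack of overlap. RefSeq names a pseudogene of Atp5pb, Atp5pb-ps, and the values may include that copy. Other peripheral stalk genes did not show such a separation, with genotype differences of 0.03 for Atp5h, -0.10 for Atp5j and 0.01 for Atp5o. The Atp5h value comes from a cluster with a mean of 11.08 that is numbered among genes of chromosome 15, whereas the gene lies on chromosome 11, and its other cluster, with a mean of 6.09, also gave 0.03.

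The 3 genes Atp5g1, Atp5g2 and Atp5g3 encode the same mature subunit c with different import sequences. The array held a pair of clusters named Atp5g2, a gene of chromosome 15. The brighter one, whose values follow, is numbered among genes of chromosome 17 and may measure a copy of the gene. It measured 9.95, 10.06 and 10.04 in App HFD mice, against 10.12, 10.22 and 10.16 in WT HFD mice. On the RD it measured 9.80, 9.92 and 10.11 in App mice, against 10.04, 10.06 and 10.09 in WT mice, with overlapping groups. Its genotype difference was -0.14 ± 0.06 (SE; unadjusted p = 0.0495, adjusted p = 0.772, limma). The dimmer cluster, numbered among genes of chromosome 15, gave -0.13 ± 0.06 (SE; unadjusted p = 0.0523, limma). Without App RD mouse 1 the difference of the brighter cluster was -0.10. Atp5g1, below an intensity of 100, and Atp5g3 had genotype differences of 0.08 and 0.01 and diet differences of -0.13 and -0.09, against 0.09 for Atp5g2.

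Atp5j lies near App on chromosome 16, with 1 protein-coding gene, Gabpa, between them, so that it lies close to the knock-in. It had a mean of 6.15, below an intensity of 100, and its genotype difference was -0.10 (95% interval -0.24 to 0.04). It averaged 6.11 ± 0.07 in App HFD mice, 6.10 ± 0.04 in App RD mice, 6.22 ± 0.15 in WT HFD mice and 6.18 ± 0.08 in WT RD mice (SD, n = 3 each). Atp5o, also on chromosome 16 but 97 protein-coding genes away, had the largest diet difference among the ATP synthase subunits, at -0.19 (95% interval -0.43 to 0.04), below an intensity of 100. The pseudogene Atp5c1-ps, with a mean of 2.72, had the largest genotype difference in complex V, at -0.41 with a 95% interval of -1.07 to 0.25.

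**Figure D2:**
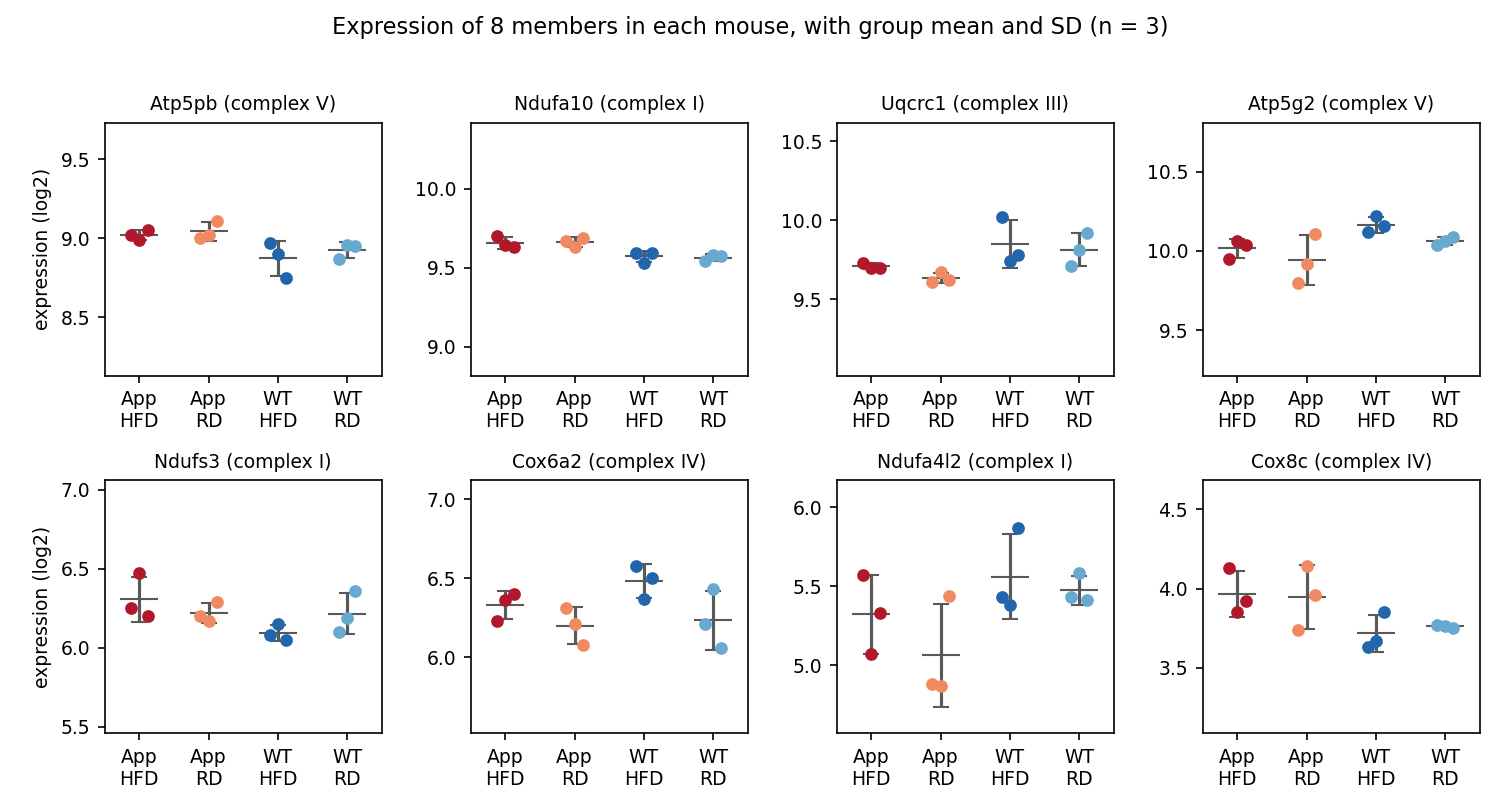
Log2 expression in each mouse for the 7 members with an unadjusted p under 0.05 in any contrast and for Ndufa10, with 3 mice per group and the group mean and SD as bars, all panels spanning the same log2 range. The App points lie above the WT points without overlap for Atp5pb and Ndufa10, and the genotypes overlap for the other members shown.

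The 9 factors comprised 8 assembly factors of complex I and the supercomplex factor Cox7a2l. Of these, 7 had a higher and 2 a lower mean in App mice, and 2 a higher and 7 a lower mean in HFD-fed mice, with 0 past an unadjusted p of 0.05 in either contrast. Ndufaf4, needed early in the assembly of complex I, had the largest difference between single groups of the members above an intensity of 100. Uqcrc1 equalled it in size at the precision given, with -0.18 between App RD and WT RD mice. Ndufaf4 measured 7.86, 7.66 and 7.83 in App HFD mice, against 7.60, 7.65 and 7.55 in WT HFD mice, which did not overlap. The difference of 0.18 ± 0.09 (SE) had an adjusted p of 0.927 with limma and an exact permutation p of 0.1, the smallest that 3 against 3 mice allow. On the RD the App mice, at 7.69, 7.71 and 7.94, overlapped the WT mice, at 7.71, 7.74 and 7.78.

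Separations of this kind between single groups were counted for the members and for the whole array. In HFD-fed mice, 9 of the 89 members lay higher in all App than in all WT mice (5.52% of all clusters did) and 6 lower (6.03%). In RD-fed mice, 6 lay higher (5.18%) and 6 lower (5.75%) in App mice. In WT mice, 1 member lay higher on the HFD than on the RD (5.3%) and 5 lower (5.03%), against 10.3% in either direction. In App mice, 4 lay higher on the HFD (4.98%) and 0 lower (4.64%). Over both genotypes, 0 members separated the diets in either direction, against 0.276% of all clusters.

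At an unadjusted p under 0.05 with limma, the counts were as follows. Between genotypes 2 were higher (2.92% of all clusters) and 3 lower (3.55%), between diets 1 was higher (2.66%) and 0 lower (2.3%), in HFD-fed mice 1 was higher in App (2.43%) and 0 lower (2.89%), and in WT mice 1 was higher on the HFD (2.95%) and 0 lower (2.27%), where 5.22% of all clusters passed in either direction. None passed it between App RD and WT RD mice (3.06% higher and 3.12% lower, 6.18% in either direction), between App HFD and App RD mice (4.62%) or in the interaction of diet and genotype (2.18% higher and 2.79% lower, 4.97% in either direction). The interaction was nearest for Ndufa5, an accessory subunit of complex I, with 0.07 between App HFD and App RD mice and -0.16 between WT HFD and WT RD mice (difference 0.23, 95% interval -0.01 to 0.46, unadjusted p = 0.0596 and adjusted p = 1.0, limma). Cox8b had an interaction of -0.76 with a 95% interval of -2.27 to 0.76.

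The spread within groups was also seen over the members together. The mean deviation of the 60 members above an intensity of 100 was 0.00, 0.01 and 0.01 in App HFD mice, -0.04, -0.02 and 0.06 in App RD mice, -0.01, 0.02 and -0.04 in WT HFD mice and -0.02, 0.04 and 0.00 in WT RD mice. App RD mouse 3 was above the 12-mouse median for 45 of the 60 members and the highest of all mice for 16, whereas App RD mouse 1 was the lowest for 15. WT HFD mouse 3 was above the median for 15 and the lowest for 12. The 3 App HFD mice together were the highest for 5 members and the lowest for 5. Ribosomal protein genes, a family of short mRNAs of another pathway, were set beside them (64 measured, 35 above an intensity of 100). Their mean deviations were -0.01, 0.06 and 0.04 in App HFD mice and -0.08, -0.07 and 0.00 in App RD mice. In WT mice they were 0.03, 0.04 and 0.00 on the HFD and -0.02, 0.01 and 0.00 on the RD.

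**Figure D3:**
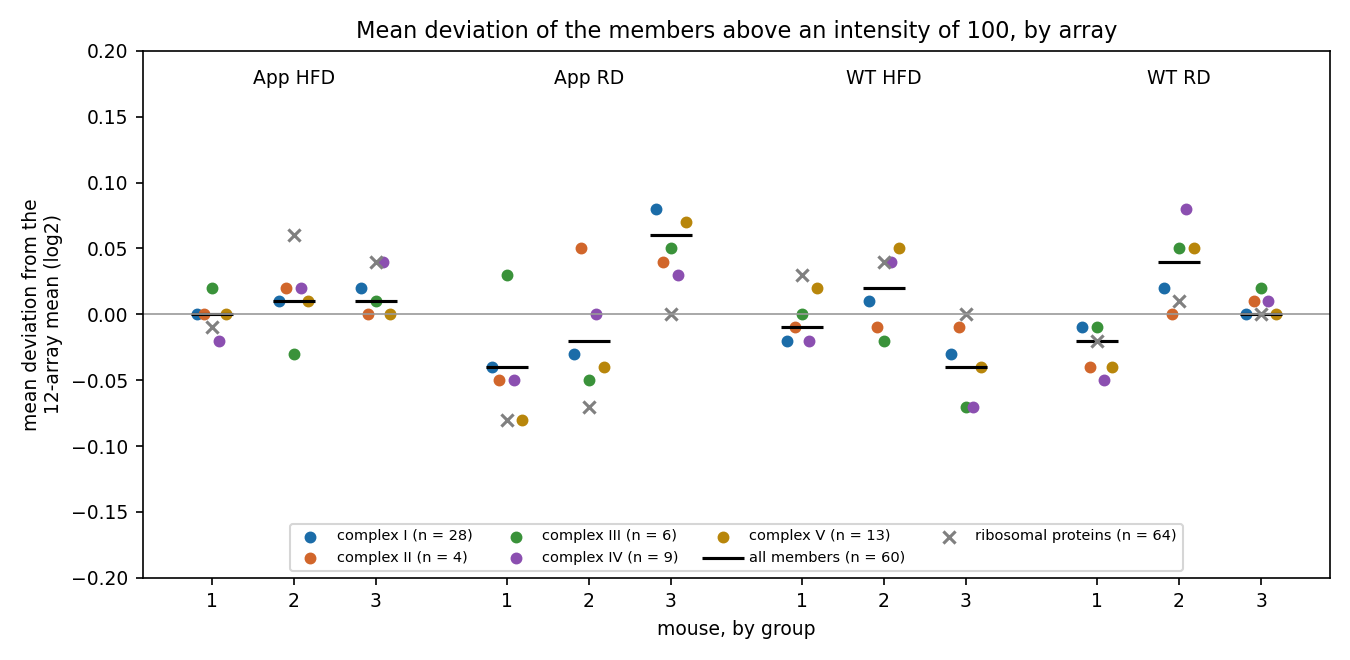
Mean deviation of log2 expression from the 12-array mean for the members above an intensity of 100, in total (bars) and by complex (coloured points), and for 64 ribosomal protein genes (crosses), for each of 3 mice in each group. The bars run from -0.04 to 0.06, with App RD mouse 1 and WT HFD mouse 3 at -0.04 and App RD mouse 3 at 0.06.

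Other genes of the pathway were counted in the same fit. None of 32 further assembly factors, 7 electron carriers and regulators of the chain, 13 regulators of mitochondrial gene expression, 14 citric acid cycle enzymes and 64 ribosomal proteins passed an adjusted p under 0.05 in any contrast with limma. The 13 regulators, among them Nrf1, Gabpa, Yy1 and the mitochondrial transcription factor Tfam, had a median difference of 0.04 between genotypes (9 higher, 4 lower in App mice) and of -0.02 between diets (4 higher, 9 lower on the HFD). At an unadjusted p under 0.05, 1 of them, the coactivator Pprc1, was lower in App mice (-0.15, unadjusted p = 0.0489 and adjusted p = 0.772, limma). The 14 citric acid cycle enzymes had medians of 0.04 between genotypes (11 higher, 3 lower) and -0.01 between diets (3 higher, 11 lower), with 0 past an unadjusted p of 0.05 in either contrast. Of the 32 assembly factors, 1 was higher and 1 lower in App mice at that p, and 0 differed between diets. Of the 64 ribosomal protein genes, 1 was higher and 2 lower in App mice (2.92% and 3.55% of all clusters), and 3 were higher and 2 lower on the HFD (2.66% and 2.3%). Whatever their p, 29 of the ribosomal genes had a higher and 35 a lower mean in App mice (median -0.02), and 51 a higher and 13 a lower mean on the HFD (median 0.04). Of the 13 subunits encoded by mitochondrial DNA, 0 could be matched to a cluster with a single symbol, and they were not analysed here.

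Which locus a cluster measured could be read only from its number, since cluster numbers run along the chromosomes: 98.9% of 23328 named clusters had their gene's RefSeq chromosome as the most common one among the 20 named clusters nearest in number. The clusters that stood for 83 of the 89 members did so as well, and 6 did not. Those of Atp5g2, Atp5h and Cox5b lay among genes of another chromosome (17, 15 and 13), and those of Cox7b, Ndufa11 and Uqcrb lay among clusters of mixed chromosomes. These 6 may measure a copy of the gene. Only chromosomes were compared, so a copy on the gene's own chromosome would not be found. Both Atp5d clusters, for example, were numbered among genes of chromosome 10, where the gene lies. For 9 members the array held more than 1 named cluster. The brighter and the dimmer cluster had genotype differences of 0.01 and -0.18 for Cox5b, 0.05 and 0.35 for Cox7b, -0.05 and -0.02 for Ndufa11, 0.04 and -0.08 for Ndufa12, -0.08 and -0.18 for Ndufa8, -0.09 and 0.02 for Atp5d and -0.12 and 0.00 for Atp5e. Of the dimmer clusters, that of Ndufa8 had an unadjusted p of 0.0131 and that of Cox7b one of 0.0314 with limma. The sign differed between the clusters for Ndufa12 and Atp5d, neither of which passed an unadjusted p of 0.05, and for Cox5b, whose dimmer cluster had a mean of 4.38 and a diet difference of 0.24 (unadjusted p = 0.0725, limma) against 0.01 for the brighter one. RefSeq names pseudogenes of 10 members, whose processed copies can share probes with the parent gene. Values of small subunits such as Atp5k, Uqcrh and Cox7c, and those of Atp5pb, may therefore include such copies. Ndufb2, Ndufb4, Ndufs6, Cox6c and Uqcr10 shared every cluster with another symbol and were not analysed here. Ndufs5, with a mean of 4.50, also had a cluster shared with Ndufs5-ps at 7.86, which the rule left out. The shared clusters of Ndufs1 (5.46) and Uqcrb (4.32) were dimmer than those used.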

How the data were processed

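Hippocampal RNA of 12 mice was measured on 12 arrays, 3 for each of 4 groups assigned from the sample labels. The authors deposited log2 values for 41345 transcript clusters; the submitters' processing notes name Transcriptome Analysis Console, while for the normalization nothing is given in the sources used here. No further normalization was applied. Clusters with several symbols (1820) or none (16004) were tested but not named. limma 3.58.1 in R 4.3.3 fitted the 4 group means (lmFit, eBayes) to all clusters, and 7 contrasts were tested with Benjamini-Hochberg adjustment over all clusters at 0.05. Intervals are 95% from limma, and exact permutation tests are two-sided. Tables were made with Python 3.11.15, pandas 2.3.3 and numpy 2.4.6. The fit was tested on simulated data. Genes were named if core subunits, tissue isoforms, among the smallest p-values of a contrast, or largest in effect in a complex; Ndufa10, Ndufaf4, Ndufa5, Ndufa8, the peripheral stalk genes and Pprc1 were named after their values were seen. The members and lists were chosen with earlier results of these data known. Alternatives were an intensity filter, trend and robust spread, median centring, quantile normalization, array weights, a replicate block, pairwise fits, gene means and leaving out each array. The labels call the replicates biological. The limma p-values and intervals rest on the spread between these mice, moderated by eBayes towards the spread of all clusters. This enlarges the SE of members with little spread, such as Ndufa10 (pooled SD within groups 0.032, SE of its genotype difference 0.04). Exact permutation tests use the values of these mice alone.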

Additional observations from a re-analysis of the deposited data

How the results depend on the processing

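In 20 alternatives, 12 of which left out 1 array, none of the members tested passed an adjusted p under 0.05 with limma. The intensity filter covered 60 of the 89 members (420 combinations of member and contrast), and fitting only the groups compared covered 4 of the 7 contrasts (356 combinations). The smallest adjusted p of a member was 0.3, when only clusters above an intensity of 100 were tested, against 0.734 in the fit of all clusters. The number of combinations of member and contrast with an unadjusted p under 0.05 was 8 of 623 with all arrays, 27 with trend and robust spread, 17 without App RD replicate 3, 3 without App HFD replicate 3, and 0 of 356 when only the 2 groups compared were fitted. Over all clusters and contrasts, calls numbered 1, against 16 among clusters above an intensity of 100, 5 with trend and robust spread, 8 without WT HFD replicate 2, 3 without App HFD replicate 1, 2 without App HFD replicate 2, and 0 with the replicate block or with only the groups compared. The replicate block gave 9 combinations of members at an unadjusted p under 0.05 and a smallest adjusted p of 0.676. Of 18 pairs of mice with the same number, 7 correlated above 0.1 in their deviations (median r 0.0327, -0.0901 to 0.331), as did 7 of 36 pairs with different numbers (median r -0.0333, -0.254 to 0.185). The main fit did not pair the mice by number, since not every same-number pair was above 0.1. That rule cannot exclude a batch shared by some mice of the same number. Over the alternatives, the genotype difference ranged from -0.18 to -0.12 for Uqcrc1, from 0.10 to 0.16 for Atp5pb, from -0.18 to -0.10 for Atp5g2, from -0.42 to -0.25 for Ndufa4l2 and from 0.17 to 0.27 for Cox8c. The 29 members below an intensity of 100 had a median SD within groups of 0.14, against 0.07 for the other 60.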
